A study of Mus musculus with 141 samples.

Results

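The aquaporins are the channel proteins that let water, and in some members glycerol and other small solutes, cross cell membranes. 10 aquaporin genes, Aqp1 to Aqp9 and Aqp11, were taken by their symbols from the 24423 genes in each file, and all 10 were found. RNA-seq gave their transcript levels in 3 tissues (liver, lung and kidney) from 47 Collaborative Cross (CC) strains, a panel of recombinant inbred mice descended from a common set of founders. There was 1 male mouse a strain, aged 8 to 12 weeks that had been exposed to clear air for 6 hours a day on weekdays over 2 weeks, so that the 3 libraries of a strain come from the same animal and the effects of strain and of the individual mouse cannot be told apart. No genotype or treatment other than strain and tissue distinguished the libraries, and whole tissue was used, so that fewer cells of a type and less RNA per cell cannot be told apart.

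Water-selective aquaporins conduct water along osmotic gradients, whereas the aquaglyceroporins Aqp3, Aqp7 and Aqp9 also conduct glycerol. In the kidney, Aqp1 lets water leave the proximal tubule and the thin descending limb, and the principal cells of the collecting duct take water up through Aqp2 at their luminal face, under the control of vasopressin, and release it through Aqp3 and Aqp4 at the basolateral face. In the lung, Aqp1 lies in capillary endothelium and Aqp5 in alveolar type 1 cells and airway glands. In the liver, Aqp9 takes up glycerol into hepatocytes, Aqp8 is found in hepatocytes and Aqp1 in bile ducts and vessels, while Aqp11 is an intracellular member of the family.

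In the NCBIM37 build, to which the authors' mm9 files correspond, Aqp2 (chr15:99409487-99414976), Aqp5 (chr15:99421280-99425260) and Aqp6 (chr15:99431831-99435908) lie one after the other on the plus strand of chromosome 15, with 6303 bases between the annotated ends of Aqp2 and Aqp5 and 6570 between those of Aqp5 and Aqp6. Aqp7 (chr4:40980107-40995172) and Aqp3 (chr4:41039755-41045216) are also neighbours, on the minus strand of chromosome 4 and 44582 bases apart. The 250 bases before the RefSeq start of Aqp2, Aqp3 and Aqp6 are shown because Aqp2 and Aqp3 varied together among the kidneys described below, whereas the relation of Aqp6, 2 genes along in the same cluster, with Aqp2 did not pass (r = 0.0792). The sequences are those of the reference strain in RefSeq (GRCm38.p6), 5′ to 3′ on the strand of the gene, and capitals mark a TATA box (TATAA), a half-site of the cAMP response element (TGACG, or CGTCA on the other strand) or a GC box (GGGCGG, or CCGCCC on the other strand).
Aqp2, chr15:99578806-99579055 (+): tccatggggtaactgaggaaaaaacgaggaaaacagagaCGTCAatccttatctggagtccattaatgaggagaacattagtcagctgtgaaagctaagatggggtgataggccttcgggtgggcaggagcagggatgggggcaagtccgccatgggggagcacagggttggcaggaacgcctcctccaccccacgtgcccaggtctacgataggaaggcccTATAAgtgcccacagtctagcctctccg
Aqp3, chr4:41098184-41098433 (-): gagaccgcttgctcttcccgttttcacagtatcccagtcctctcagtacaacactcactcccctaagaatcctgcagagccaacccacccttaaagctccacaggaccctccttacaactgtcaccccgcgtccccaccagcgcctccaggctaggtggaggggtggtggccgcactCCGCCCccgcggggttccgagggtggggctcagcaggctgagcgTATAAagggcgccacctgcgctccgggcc
Aqp6, chr15:99600950-99601199 (+): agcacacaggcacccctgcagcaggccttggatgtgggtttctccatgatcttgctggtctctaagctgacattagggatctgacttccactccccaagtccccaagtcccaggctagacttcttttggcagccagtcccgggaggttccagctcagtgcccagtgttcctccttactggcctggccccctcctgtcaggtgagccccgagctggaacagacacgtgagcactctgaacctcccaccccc
Each of the 3 windows matched NCBIM37 exactly and at 1 place. TATAA began 28 bases before the start of Aqp2 and 29 bases before that of Aqp3, a motif that 22.8% of the 32851 windows of the same length held on either strand. The Aqp2 window also held a half-site of the cAMP response element, as did 17.8% of windows, and the Aqp3 window a GC box, as did 32.7%. No such motif was in the Aqp6 window, which lies apart from the annotated gene: the GENCODE start is 450 bases from its first base, against 250 for Aqp2 and Aqp3. The window of Aqp5, not printed because the GENCODE start lies inside it, held 2 GC boxes and 38 CG dinucleotides against a median of 6 over all windows. Whether any of these motifs bears on how the genes varied among the kidneys was not tested.

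Libraries held between 1738046 and 42158454 counts, with a median of 9043226. No 2 libraries were identical. Defining transcripts matched the labelled tissue, since the lowest liver library for Alb (18517 TPM, a level scaled by transcript length and by library) exceeded every other tissue's highest value of 1169.9, and Sftpc was 3762 TPM or more in lung against at most 117 elsewhere. Umod, a marker of the thick ascending limb, was 2.74 TPM or more in kidney and 0.86 TPM or less elsewhere. A few libraries stood apart in ways that touch the aquaporins. The CC032 kidney had the highest summed TPM of the markers of principal cells, intercalated cells, thin limb and thick ascending limb, the CC042 lung the highest sum of airway basal-cell markers, and the CC015 lung the lowest sums of alveolar type 1, alveolar type 2 and endothelial markers. After TMM scaling (by trimmed means of the log ratios between libraries) the CC042 sum ranked 4 of 47 and the CC015 sums 35, 40 and 31. The part of these differences in the results was not tested, and values without CC032 and CC042 are given where they matter.

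Aqp4, Aqp8 and Aqp9 have 9, 2 and 3 transcripts in the annotation used by the authors, who counted uniquely aligned reads. Genes with more than 1 transcript had low values throughout these files: their median TPM over genes came to 0.03 for livers, 0.30 for lungs and 0.13 for kidneys, against 0.31, 3.26 and 1.14 for genes with 1 transcript. The levels of Aqp4, Aqp8 and Aqp9 are therefore read within the gene only. The tests of order described next include 2 liver pairs with Aqp8 or Aqp9, which are not reported. In the same build, Aqp1 (chr6:55286426-55298549), Aqp4 (chr18:15547903-15562193), Aqp8 (chr7:130605808-130611517), Aqp9 (chr9:70958466-71016489) and Aqp11 (chr7:104874889-104886757) lie outside the chromosome 15 and chromosome 4 groups.

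In kidney and in lung 6 aquaporins each exceeded 1 TPM after TMM scaling in more than 50% of libraries, and in liver 4 did. Aqp1, the constitutive water channel of the proximal nephron, was the most abundant in kidney, with a lowest, median and highest TPM over the 47 strains of 235, 739.8 and 1282. Aqp2, the vasopressin-regulated channel, ranged from 49.5 over a median of 109.6 to 267 TPM, and Aqp3, its basolateral partner, from 50.3 over 102 to 188 TPM. Aqp2 and Aqp3 had similar lowest values and medians and Aqp2 reached higher, while the lowest Aqp1 library lay above all but the highest Aqp2 library.

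Aqp11 had 19.1, 48.5 and 100.0 TPM in kidney, Aqp7, a glycerol channel of the straight proximal tubule, 7.86, 23.4 and 38.4 TPM, and Aqp6, an anion-conducting aquaporin of intercalated cells, 4.67, 11.6 and 75.4 TPM. The highest Aqp6 value belonged to the CC032 kidney and the next to the CC045 kidney at 33.6 TPM. Aqp5 was at most 2.68 TPM in kidney and Aqp4 at most 0.52 TPM. The order from Aqp1 down through Aqp2, Aqp3, Aqp11, Aqp7 to Aqp6 was tested between neighbours by flipping signs of the paired log2(TPM + 0.1) differences (two-sided permutation test, 100000 resamples, Benjamini-Hochberg over 13 neighbour pairs of the 3 tissues). Every step in kidney passed, although Aqp2 exceeded Aqp3 by only 0.16 ± 0.42 on the log2 scale (SD, n = 47) and in 33 of 47 strains (permutation p = 0.0147, q = 0.0174). Aqp3 exceeded Aqp11 in 47 of 47 strains and Aqp7 exceeded Aqp6 in 43.

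**Figure D1:**
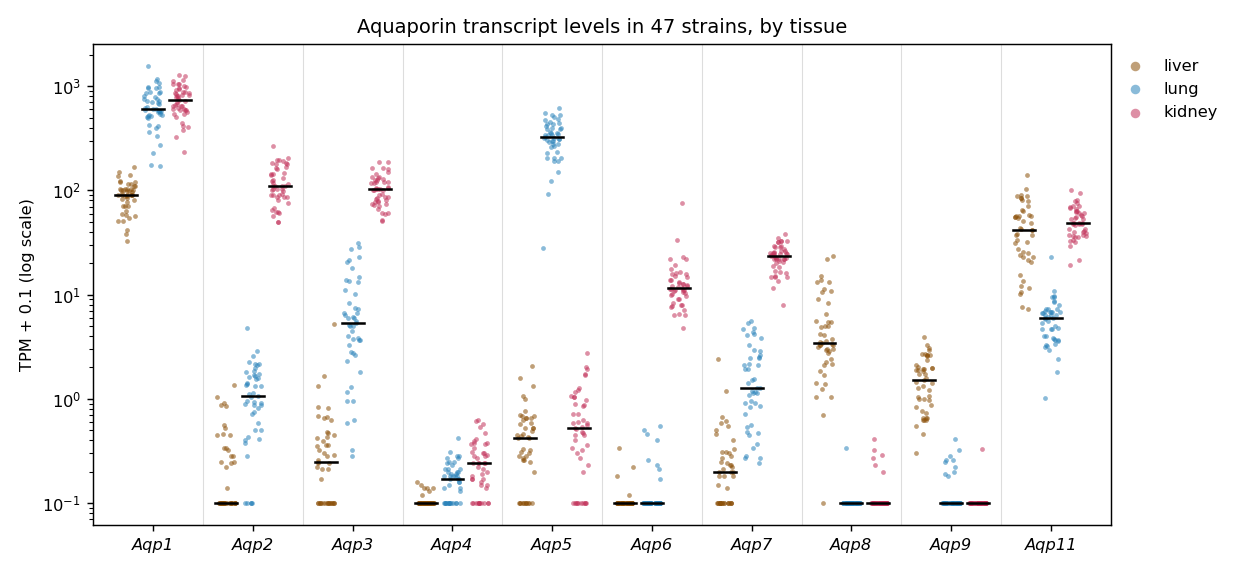
TPM of the 10 aquaporins (TPM + 0.1, log scale) in liver, lung and kidney, with 1 point per strain (47 per tissue) and a bar at the median. Aqp2, Aqp3, Aqp6 and Aqp7 were highest in kidney, Aqp5 in lung (27.7 to 620.1 TPM) and Aqp8 and Aqp9 in liver, and points at the lower edge are libraries at 0.

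In lung, Aqp1 (170.2, 609 and 1567 TPM) and Aqp5 (27.7, 328 and 620.1 TPM) stood far above the rest. The lowest library for both was that of CC015, whose lung ranked 17 of 47 for Aqp1 but still 47 of 47 for Aqp5 after TMM scaling. Aqp1 exceeded Aqp5 by 1.01 ± 0.50 on the log2 scale and in 45 of 47 strains (permutation p = 1e-05, the smallest these resamples can give, q = 1.3e-05).

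Lower levels were found for Aqp11 (0.91, 5.89 and 22.99 TPM), Aqp3 (0.18, 5.27 and 31.5 TPM), Aqp7 (0.14, 1.18 and 5.53 TPM) and Aqp2 (0, 0.97 and 4.72 TPM). Aqp11 and Aqp3 did not differ beyond the spread over strains, since Aqp11 was the higher in 23 of 47 strains (permutation p = 0.536, q = 0.536). Aqp7 lay above Aqp2 in 28 of 47 strains (permutation p = 0.0285, q = 0.0309), at median counts of 10 and 4. Aqp2 in lung thus rests on few reads.

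In liver, Aqp1 was the highest of the members with 1 transcript (32.6, 90.8 and 169 TPM), followed by Aqp11 (7.11, 41.8 and 142 TPM), and Aqp1 exceeded Aqp11 in 45 of 47 strains (permutation p = 1e-05, q = 1.3e-05). The highest Aqp11 value was that of the CC032 liver and the next that of CC030 at 102 TPM. Aqp8 had 0, 3.36 and 23.32 TPM, with 1 library at 0, and Aqp9 0.20, 1.41 and 3.86 TPM, both from counts of uniquely aligned reads alone. Of the others, the median count in liver was 1 for Aqp3, Aqp5 and Aqp7 and 0 for Aqp2, Aqp4 and Aqp6. Aqp6 had 4 counts in the 47 livers together.

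Which aquaporins distinguish the tissues was asked with limma-voom on TMM-scaled counts, with tissue and strain as terms, over 12127 genes with more than 1 CPM (a count relative to its library's total, which for the CPM levels below is TMM-adjusted) in at least 30% of libraries. A gene was called at a Benjamini-Hochberg q of at most 0.1 and a log2 fold change of at least 1 in size. 7 members passed the filter, and Aqp4, Aqp8 and Aqp9 did not. The 47 libraries of 1 tissue are enough to pass this filter. Aqp2, Aqp6 and Aqp7 had a median over 1 CPM only in kidney and Aqp5 only in lung. For these members, a call between that tissue and another largely follows from the filter. The numbers of calls and the medians of the members are therefore descriptive, and the background genes passed the same filter. Where a member had a median count of 3 or fewer in both tissues, no fold is given. Numbers of strains that were higher in a tissue refer to TMM-adjusted CPM. The share over all genes was not counted for these numbers or for TPM ranges that do not overlap, so both only describe the members. For members near 0 in 1 tissue, the ratio of counts pooled over the 47 libraries is given with an exact 95% binomial interval, which covers counting error only.

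Between lung and kidney, 6 of the 7 tested members were called, against a background of 46.3% of all genes. 5 were higher in kidney (background 21.7%) and 1, Aqp5, in lung (background 24.6%). The median log2 fold change of the 7 was -4.51, against -0.02 over all genes. Aqp2, the regulated water channel, had 0.343 ± 0.252 CPM in lung and 54.8 ± 17.5 CPM in kidney (SD, n = 47), a difference of lung minus kidney of -7.38 ± 0.12 (log2 fold change ± SE, limma-voom q = 3.5e-79), and was 167-fold higher in kidney by pooled counts (147 to 191). Aqp3 was lower in lung with a difference of -4.51 ± 0.17 (q = 8.8e-45) and Aqp7 with a difference of -4.56 ± 0.13 (q = 1.9e-57). Each of these 3 was higher in kidney in 47 of 47 strains, with no overlap of the TPM ranges. Aqp6 had 16 counts in all 47 lungs together and 4123 in the kidneys, a ratio of 374 (230.1 to 655).

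Aqp11 was lower in lung with a difference of -3.74 ± 0.11 (q = 7.6e-54), again in 47 of 47 strains, although its TPM ranges met because the CC006 lung reached 22.99 TPM. Aqp5 ran the other way, with 107 ± 27.6 CPM in lung and 0.312 ± 0.351 CPM in kidney, and was 399.8-fold higher in lung by pooled counts (337 to 478). Its groups did not overlap. Aqp1 was abundant in both, at 391 ± 112 CPM in lung and 674 ± 143 CPM in kidney. It was lower in lung in 47 of 47 strains, but with a difference of -0.81 ± 0.06 (q = 1.9e-23), short of the fold threshold, and the TPM ranges of the tissues overlapped. The difference was smaller with total counts (-0.33, q = 0.0438) and on log2(TPM + 1) and log2(TPM + 0.1) (-0.23 in both, q = 0.0395 and 0.0402). These scalings moved the median of all genes to 0.46, 0.47 and 0.56, against -0.02 with TMM. Relative to that median Aqp1 differed by -0.79, -0.70 and -0.79, against -0.79 with TMM. The CC061 lung, at 1567 TPM, exceeded every kidney.

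Between liver and kidney, 5 of the 7 tested members were called, all of them higher in kidney, where the background was 36.6% in either direction, 22.0% higher in kidney and 14.7% higher in liver. The median log2 fold change of the 7 was -6.32, against -0.07 over all genes. Aqp1 had 149.8 ± 27.5 CPM in liver, a difference of liver minus kidney of -2.18 ± 0.06 (q = 7.7e-57). The remaining 4 were close to absent from liver. By pooled counts Aqp6 was 696-fold higher in kidney (272 to 2556), Aqp2 487-fold (353 to 692), Aqp3 229-fold (185 to 286) and Aqp7 83.04-fold (66.0 to 106). For all 5, every kidney exceeded every liver in TPM, a separation whose share over all genes was not counted. The liver counts were unevenly spread, since the CC041 liver held 24 of the 86 Aqp3 counts and the CC006 liver 16 of the 73 Aqp7 counts. Among livers, CC041 also had the highest sum of airway basal-cell markers (91.1 TPM, median 0). CC006 had the highest sum of adipocyte markers (621.5 TPM, median 28.2). Whether other tissue in these samples gave the counts was not tested.

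Aqp11 was the exception. Its mean level was 35.9 ± 19.5 CPM in livers and 22.1 ± 5.78 CPM in kidneys. It was higher in liver in 33 of 47 strains and did not reach the fold threshold (0.59 ± 0.10, q = 2.4e-07). Its direction depended on the scaling, since the difference was -0.35 with total counts and -0.38 and -0.39 on log2(TPM + 1) and log2(TPM + 0.1), and the median TPM was lower in liver (41.8 against 48.5). These scalings moved the median of all genes to -0.95, -0.72 and -0.94, against -0.07 with TMM, so that relative to that median Aqp11 differed by 0.60, 0.34 and 0.54, against 0.67 with TMM. Outside the limma fit, because the filter removed them, Aqp8 had 1498 counts in the livers and 7 in the kidneys, a ratio of 317 (153 to 789.6), and Aqp9 had 763 and 1, a ratio of 1129.9 (202 to 44687).

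Between liver and lung, 5 of the 7 tested members were called, against a background of 54.9%. 4 were higher in lung (background 31.2%) and 1, Aqp11, in liver (background 23.7%). Their median was -1.37, against -0.07. Aqp5 was 365-fold higher in lung by pooled counts (299 to 449.7) and Aqp1 had a difference of liver minus lung of -1.37 ± 0.06 (q = 7.8e-40), both in 47 of 47 strains and without overlap. Aqp3 (-3.29 ± 0.21, q = 2.3e-28) and Aqp7 (-1.76 ± 0.14, q = 3.6e-22) were higher in lung in 45 and 37 strains, from liver libraries with a median count of 1. Aqp11 was higher in liver by 4.33 ± 0.11 (q = 1.3e-59) in 47 of 47 strains.

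Aqp2 was not called between liver and lung (-0.91 ± 0.12, q = 3.2e-11). It passed the fold threshold with other size factors (-1.13), total counts (-2.21), edgeR (-1.46), DESeq2 (-1.58) and log2(TPM + 0.1) (-2.24). Relative to the median of all genes, Aqp2 differed by -0.83, -0.78, -1.37, -1.27 and -0.72 in these, in the same order, against -0.85 in the main fit. On log2(TPM + 1) Aqp2 was not called (-0.78, and 0.43 relative to that median). Its median count was 0 in liver and 4 in lung. Aqp8 had 1498 counts in liver and 1 in lung, a ratio of 3221 (577 to 127303), and Aqp9 763 and 10, a ratio of 164 (88.7 to 344). The share of calls at the higher level in liver was 43.2% over all genes with TMM and 13.7% with total counts, so the counts in each direction over all genes depend on the scaling.

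**Figure D2:**
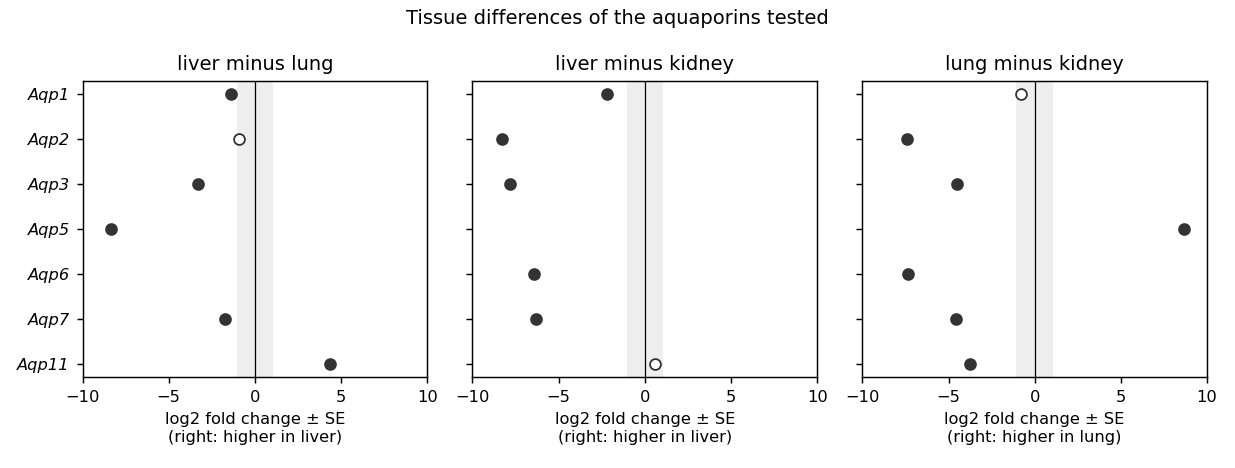
Log2 fold change with its SE (bars mostly hidden by the symbols) of the tested aquaporins in each pair of tissues, leaving out members with a median count of 3 or fewer in both. Filled symbols passed the threshold, open symbols did not, and grey marks log2 fold changes under 1 in size. Aqp5 lies at 8.63 in lung minus kidney and Aqp11 at 4.33 in liver minus lung, on the right, while the other called values lie on the left.

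The other genes of the pathways in which aquaporins act were counted in the same fit. Their counts stand beside the share of all genes called in the same direction. Of 30 genes of the vasopressin response of the collecting duct, 21 were tested. 10 were higher in kidney than in liver (background 22.0%) and 0 lower (background 14.7%; median difference of liver minus kidney -0.91, against -0.07 over all genes), whereas between lung and kidney 3 were higher in kidney (background 21.7%), 1 in lung (background 24.6%) and 17 were not called (median 0.01 against -0.02). Gata3, a transcription factor of the collecting duct, and Stx3, a membrane fusion protein, were lower in liver than in kidney with differences of -4.51 ± 0.16 and -4.09 ± 0.08. Both were also lower in liver than in lung, with differences of -4.53 ± 0.16 and -3.66 ± 0.07. Stx3 has 4 transcripts, and genes with more than 1 had low values in these files. Myo5b, the motor that carries recycling vesicles, was lower in lung than in kidney with a difference of -1.40 ± 0.03 and lower in liver with a difference of -1.99 ± 0.03. Between liver and lung, 9 were higher in lung (background 31.2%) and 1 in liver (background 23.7%). The receptor Avpr2 was at a median of 0.22 TPM in kidney and was not tested.

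Of 18 genes of glycerol uptake and use, 13 were tested, of which 8 were higher in kidney than in lung (background 21.7%) and 0 lower (background 24.6%; median of lung minus kidney -1.46). 9 were higher in liver than in lung (background 23.7%) and 1, Lpl, which releases fatty acids from circulating fat, was lower (-1.97 ± 0.13, background 31.2%). The gluconeogenic genes G6pc, Fbp1 and Pck1 were the furthest apart, being lower in lung than in kidney with differences of -8.51 ± 0.16, -8.36 ± 0.08 and -7.63 ± 0.12. Between liver and kidney 5 were higher in liver (background 14.7%) and 2 in kidney (background 22.0%). Of these 2, the glycerol kinase Gk (-2.18 ± 0.08) was at a median of 0.85 TPM in liver and 8.71 TPM in kidney. Gk has 5 transcripts, and genes with more than 1 had low values in these files. Whether the tissues use different transcripts of Gk was not tested.

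Of 9 genes of urea and osmolyte handling, 7 were tested, and all 7 were called between liver and kidney (background 36.6%), 5 of them higher in kidney (background 22.0%). These included the urea transporter Slc14a2 (-5.73 ± 0.19), a gene with 4 transcripts, to which the limit on such genes applies. They also included the inositol transporter Slc5a3 (-3.78 ± 0.10), while Arg1, the last enzyme of the urea cycle, was higher in liver by 10.25 ± 0.12. Between lung and kidney 3 were higher in kidney and 1 in lung, and between liver and lung 2 were higher in each, so that 4 of 7 were called in both comparisons, near the backgrounds of 46.3% and 54.9%. Of 9 water and ion partners of alveolar fluid clearance, 8 were tested. The sodium channel subunits Scnn1a (1.94 ± 0.10) and Scnn1g (1.78 ± 0.07) and the chloride channel Cftr (1.13 ± 0.11) were higher in lung than in kidney, in 47, 47 and 44 of 47 strains, whereas Atp1b1, the beta subunit of the sodium pump, was higher in kidney (-2.96 ± 0.05). 6 of the 8 were higher in lung than in liver (background 31.2%) and 8 of 8 higher in kidney than in liver (background 22.0%).

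The members differed widely in how much they varied among strains. With 1 mouse a strain, this spread holds strain, individual and technical differences together and is described without a test. The SD of log2 TMM-normalized TPM was 0.27 for Aqp1 in liver, 0.32 in kidney and 0.41 in lung, against medians over genes of 0.39, 0.37 and 0.38, and 0.39 for Aqp5 in lung. It was 1.60 for Aqp3 in lung, larger than that of 96.3% of 12389 genes, at a median count of 23, and 1.19 for Aqp7 in lung (91.9% of genes, median count 10). In liver, Aqp8 had an SD of 1.33 (94.2% of 9002 genes, median count 23) and Aqp11 0.96 (87.7%, median count 196). In kidney it was highest for Aqp6, at 0.66 (78.8% of 10772 genes), with the CC032 kidney highest, as given above. The same genes were steadier elsewhere, with 0.34 for Aqp3 in kidney and 0.40 for Aqp11 in kidney.

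**Figure D3:**
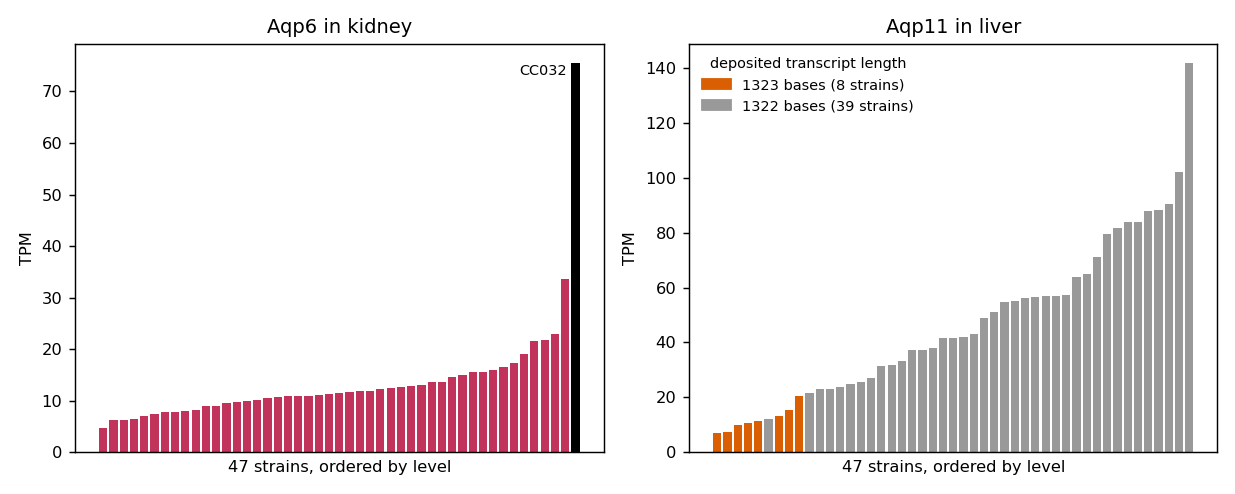
TPM of Aqp6 in kidney (left) and Aqp11 in liver (right), 1 bar per strain in order of level. The CC032 kidney (black) stands at 75.4 TPM against 33.6 for the next strain, and the 8 strains with a deposited Aqp11 transcript of 1323 bases (orange) lie between 7.11 and 20.4 TPM.

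The strains low in Aqp11 in liver shared a feature of their transcript models. The authors quantified each strain against its own pseudo-transcriptome, and the deposited length of the single Aqp11 transcript was 1323 bases in 8 strains (CC002, CC006, CC017, CC023, CC033, CC042, CC044 and CC061) and 1322 bases in 39. In liver the 8 strains had 7.11, 11.1 and 20.4 TPM (lowest, median and highest) and the 39 strains 12.0, 51.2 and 142 TPM. Only 1 of the 39, CC015, lay within the range of the 8. In kidney the 8 strains had 19.1, 37.4 and 48.9 TPM and the 39 strains 21.4, 53.5 and 100.0 TPM, so that none of the 8 exceeded the median of the 39. In lung the medians were 5.49 and 5.89 TPM, and 3 of the 8 exceeded the median of the 39. The pattern was noticed after the values were seen and is given without a test.

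Whether strains high in 1 tissue were also high in another was asked for members above 1 TPM in more than 50% of libraries of both tissues. Pearson's r of rank inverse normal values and Spearman's rho were tested by permutation (two-sided, 100000 resamples) with Benjamini-Hochberg adjustment over 9 relations, and 2 passed at q of at most 0.05. Aqp1 in lung and kidney varied together (r = 0.475, permutation p = 0.00081, q = 0.00729, rho = 0.516, permutation p = 0.00023, n = 47), and r was 0.440 when the 2 strains most distant from the median were left out. Aqp11 in liver and kidney did so as well (r = 0.399, permutation p = 0.00571, q = 0.0257, rho = 0.425, permutation p = 0.00358, n = 47, r = 0.5004 without the 2 strains lying farthest out). Within the 39 strains with the shorter transcript rho was 0.183, and within the other 8 it was 0.524. Neither relation passed on TPM without TMM scaling, where r was 0.203 for Aqp1 (q = 0.427) and 0.366 for Aqp11 (q = 0.103).

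For the other 7 relations r lay between -0.118 and 0.221. Aqp3 in lung and kidney had an r of 0.0635 (permutation p = 0.672, q = 0.726, n = 47), and Aqp1 in liver had one of -0.0530 with lung and -0.0899 with kidney.

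**Figure D4:**
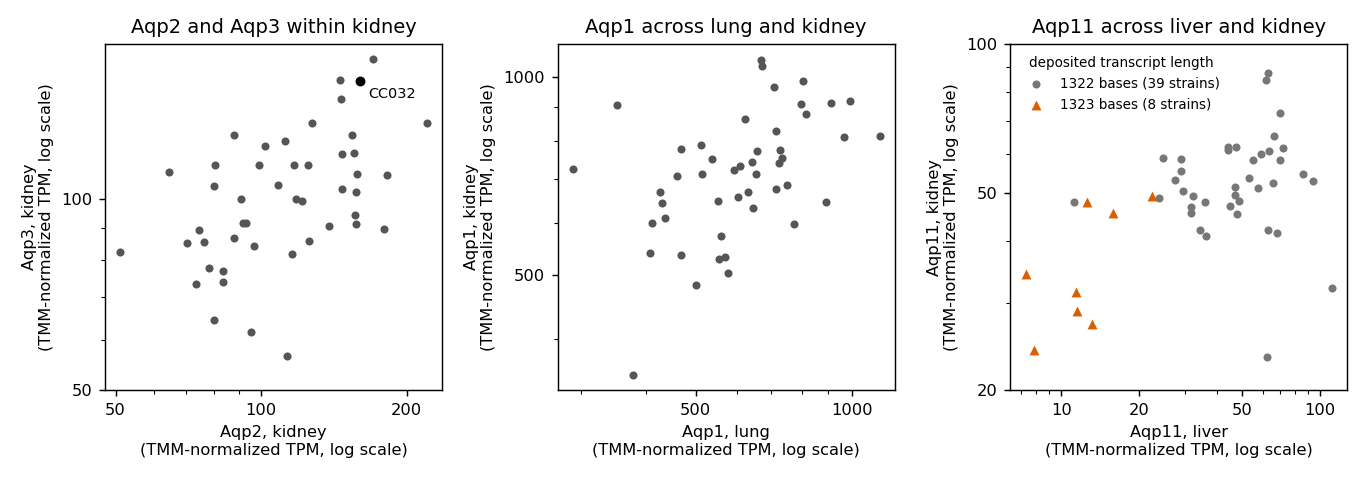
TMM-normalized TPM (log scales) of Aqp2 and Aqp3 in kidney, of Aqp1 in lung and kidney, and of Aqp11 in liver and kidney, with 1 point per strain (n = 47). The first 2 panels slope upwards (r = 0.502 and 0.475), and in the third the 8 strains with the longer deposited Aqp11 transcript (triangles) sit at the lower left.

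Of 36 pairs of aquaporins within a tissue, 1 passed. Aqp2 and Aqp3 varied together among kidneys (r = 0.502, permutation p = 0.00036, q = 0.013, rho = 0.522, permutation p = 0.00017, n = 47), and r was 0.474 when the 2 outermost strains were left out and 0.479 without CC032 and CC042. After regression on the summed level of 8 other principal-cell markers r was 0.489 (q = 0.00825 over the 15 kidney pairs alone). The q of 0.013 was over all 36 pairs, so the q values are not comparable. The sum of the 8 markers itself had no detectable relation with Aqp2 (r = 0.133, permutation p = 0.373, q = 0.687, n = 47) or Aqp3 (r = 0.316, permutation p = 0.0314, q = 0.198, n = 47), and 67.1% of it was 1 gene, Tfcp2l1. Aqp6 had an r of 0.0792 with Aqp2 (permutation p = 0.597, q = 0.884, n = 47) and 0.0699 with Aqp3 (permutation p = 0.638, q = 0.884, n = 47), and neither passed. In lung, Aqp1 and Aqp5 had an r of 0.284 (q = 0.375), and Aqp5 and Aqp7 one of -0.403 (q = 0.079). None of the 6 pairs in liver passed.

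The aquaporins were then set beside the summed levels of marker genes of the cell types in each tissue, 164 relations in all, of which 7 passed. Aqp3 in lung had the closest, with the markers of airway basal cells (r = 0.888, permutation p = 1e-05, the smallest these resamples can give, q = 0.00082, rho = 0.875, n = 47). Their sum ranged from 0.14 over 11.5 to 207 TPM, highest in the CC042 lung, which also had the highest Aqp3 in TPM (rank 4 for both after TMM scaling). Without CC032 and CC042 r was 0.879, and without the 2 outermost strains 0.870. Of the 4 markers, the keratins Krt5 (rho = 0.870) and Krt15 (rho = 0.864) carried the sum. Krt14 was at 0 in 46 libraries and Trp63, the defining transcription factor of basal cells, was listed at 0 in all 47. As only uniquely aligned reads were counted, these zeros do not show that Trp63 RNA was absent. With the other airway lists Aqp3 had an r of -0.225 (club and goblet cells), 0.148 (ciliated cells) and 0.110 (glands), and none passed. The list thus rests on Krt5 and Krt15, and the tissue they came from was not tested. Aqp3 in lung also varied with the muscle markers (r = 0.578, permutation p = 2e-05, q = 0.00109, rho = 0.584, n = 47), among which Ckm had a rho of 0.648, Acta1 one of 0.578, Actc1, which led the sum, one of 0.268 and the heart myosin Myh6 one of -0.143.

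Aqp7 in lung went with the adipocyte markers (r = 0.832, permutation p = 1e-05, q = 0.00082, rho = 0.811, n = 47, r = 0.777 without the 2 outermost strains). Their sum ranged from 42.4 over 281 to 953 TPM. Of the 7 markers, Fabp4 (rho = 0.816), Adipoq (0.781), Plin1 (0.741), Lep (0.719) and Plin4 (0.636) followed Aqp7 most closely, and Cidec, at 0 in 29 libraries, did not (-0.0590). Whether fat, airway or other tissue in the sampled lungs accounts for these levels was not tested. In contrast, Aqp5 had an r of 0.333 with the alveolar type 1 markers (permutation p = 0.0222, q = 0.174, n = 47), and Aqp1 one of -0.0088 with the endothelial markers.

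**Figure D5:**
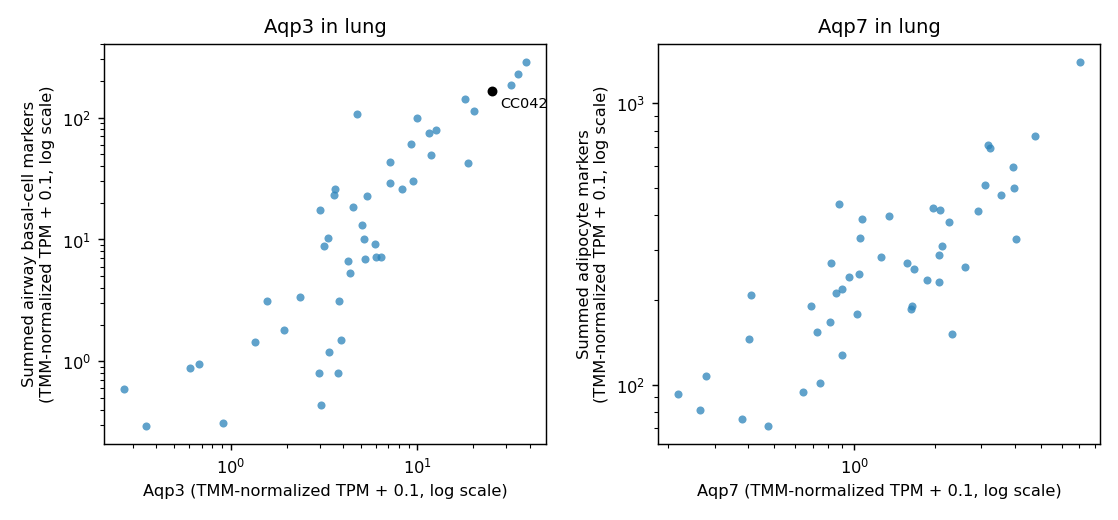
Aqp3 against the summed airway basal-cell markers (left) and Aqp7 against the summed adipocyte markers (right) in 47 lungs, all as TMM-normalized TPM + 0.1 on log scales, with 1 point per strain. Both rise together over the whole range (r = 0.888 and 0.832), and the CC042 lung (black, left panel) lies in the upper right.

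4 relations in kidney passed, and none of them passed without CC032 and CC042 or without the 2 outermost strains. Aqp6 had an r of -0.447 (q = 0.0426) with the early proximal tubule markers and 0.485 (q = 0.0221) with the erythroid list, 92.8% of which was Slc4a1, an anion exchanger that intercalated cells also express. Alas2, the erythroid gene of the list, had a rho of -0.413 with Aqp6. Of the globin genes, Hba-a1 was listed at 0 in 47 kidneys and Hbb-b1 in 46. Both also had a median of 0 in liver and in lung, so these zeros do not show whether red cells were present. For Aqp6 with the intercalated-cell markers r was 0.410 (q = 0.0625). Aqp7 had an r of -0.458 (q = 0.0426) with the thin limb markers, and Aqp11 one of 0.444 (q = 0.0443) with the early proximal tubule markers. Without CC032 and CC042 the 4 values were -0.412, 0.458, -0.379 and 0.413 (q between 0.0644 and 0.156), and without the 2 outermost strains -0.357, 0.346, -0.346 and 0.316 (q between 0.287 and 0.307), each in the same direction.

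The genes most like each member over the 47 strains were named by rank correlation in the tissue of its highest median TPM, as a description. In kidney, over 10771 genes, the genes most like Aqp2 included Ckb, a creatine kinase (rho = 0.708), and Mal (0.640), and those most like Aqp3 were Gcgr, the glucagon receptor (0.646), Slc25a29 (0.621) and Lrrc29 (0.571). Aqp6 was most like Nr2f2 (0.794), Zfp609 (0.774) and Ncoa6 (0.756), all regulators of transcription, and Aqp11 like Akip1 (0.717), Stard5 (0.544) and Bdh1 (0.509). The values for Aqp1 (Dnajb7, Zc3h12c and Pigv, 0.498 to 0.538) and Aqp7 (Tgfb3, Coro1c and Gtf2f1, 0.498 to 0.562) were lower.

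In lung, Aqp5 was most like Trim41 (0.651), Pald1 (0.648) and Mrpl14 (0.628). In liver, Aqp8 was most like Elovl5, which elongates fatty acids (0.606), Scd1, which desaturates them (0.588), and Acaca, which makes their precursor malonyl-CoA (0.583). Aqp9 was most like Fancf (0.567), 2900005J15Rik (0.560) and Yeats4 (0.545). All these values share the libraries they compare.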

How the data were processed

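The members and gene lists were chosen with earlier results of these data known. Per the authors' methods and processing notes, 50-base single-end reads were aligned with STAR 2.5.3a to pseudo-genomes of each strain (mm9) and quantified with RSEM against RefSeq pseudo-transcriptomes. The expected count that the authors deposited per gene was rounded to whole numbers (25 values were not whole), and the deposited TPM values, scaled for length and depth, were used for levels. The authors' FPKM column was read but not used. The transcript length deposited by the authors is the strain's own.

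Tissues were compared with limma 3.58.1 (voom) after TMM scaling with edgeR 4.0.16, with strain as a block, in R 4.3.3. Libraries of the same mouse deviated together (median correlation of deviations from the tissue means 0.183 for liver with lung, 0.202 for liver with kidney and 0.220 for lung with kidney), and the pairing comes from the animal. Relations between strains were called at q of at most 0.05, a threshold set when the analysis was written. The authors' models held a term for sequencing batch. Batch is not in the labels and was not fitted here, so differences between batches may remain in the tissue fits and in the relations between strains. Counts over 12127 genes were also simulated from the mean of each strain over its tissues, with the same spread for every gene and 200 genes changed 4-fold in liver. Between liver and lung the fit called 200 of these 200 and 0 others. In the data 54.9% of genes were called between these tissues, so the simulation does not show how the fit behaves there. Named genes are all members, up to 3 called genes per list, direction and tissue pair, the 3 genes most like each member, and markers, some of which are not reported here. Protein sequences were not analysed here. Alternatives were other scalings, filters, tests, thresholds, units and strains left out. Intervals and a floor of 3 counts cover counting error only.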

Additional observations from a re-analysis of the deposited data

How the results depend on the processing

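Called differences of members kept their direction in the 12 alternatives of the tissue fit, and counts of called members stayed within 1.5 times (5 to 7 for liver against lung, 5 to 7 for liver against kidney and 6 to 7 for lung against kidney). No call on a member changed with no replicate block, where 5, 5 and 6 were called. Besides Aqp2 between liver and lung, and members that entered with no filter on low counts, calls were gained where the fold threshold was dropped, by Aqp1 (-0.81, lung minus kidney), Aqp2 (-0.91) and Aqp11 (0.59, liver minus kidney). Aqp11 in liver minus kidney reversed with total counts (-0.3549) and on log2(TPM + 1) (-0.3767) and log2(TPM + 0.1) (-0.394). All 13 neighbour pairs in the order of levels, 2 of them with Aqp8 or Aqp9, kept their side of the threshold with a pseudocount of 1 and without CC032 and CC042.

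Of 185 counts recomputed, 166 stayed within 1.5 times. In the vasopressin list, liver against lung gave 10 calls and 17 with total counts, 16 on log2(TPM + 1), 18 on log2(TPM + 0.1) and 20 without the fold threshold. Liver against kidney gave 10, and 16 with total counts and 18 without the fold threshold, and lung against kidney 4, and 7 without the filter on low counts and 19 without the fold threshold. In the urea list, liver against lung gave 4, and 7 with total counts and on log2(TPM + 0.1), and lung against kidney 4, and 7 without the fold threshold. Without that threshold the glycerol list gave 12 in place of 7 for liver against kidney and 13 in place of 8 for lung against kidney, and the alveolar fluid list 8 in place of 5 for lung against kidney. Calls higher in the first tissue made up 43.2%, 40.045% and 53.2% with TMM for liver against lung, liver against kidney and lung against kidney, and 13.7%, 14.5% and 68.7% with total counts, 12.6%, 16.3% and 70.5% on log2(TPM + 1), and 12.4%, 14.4% and 71.6% on log2(TPM + 0.1). For liver against lung with no filter the share was 57.5%.

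On TPM without TMM, relations between tissues that passed fell from 2 to 0, pairs within a tissue went from 1 to 12 and marker relations from 7 to 82, and Aqp7 with the thin limb markers reversed to 0.0778. Marker relations numbered 3 both without CC032 and CC042 and without the 2 outermost strains, and these 3 were the lung relations of Aqp3 and Aqp7. The cause of these changes was not tested. With 1 mouse a strain, no spread within a strain can be had, and Aqp2 in lung and Aqp8 and Aqp9 in liver rest on median counts of 4 to 23.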

Other observations

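Genes most like the members in tissues other than that of their highest level were looked up after the values were seen, and are given as rank correlations over 47 strains without a test. Among 12388 genes in lung, the 3 most like Aqp3 were the keratins Krt5 (rho = 0.870) and Krt15 (0.864) and Calml3 (0.860), a calmodulin-like protein of stratified epithelia, with the connexin Gjb2 and the keratin Krt4 among the first 10. The 3 most like Aqp7 in lung were Fabp4 (0.816), Adipoq (0.781) and Pck1 (0.763), with Car3, Thrsp, Plin4 and the glycerol-3-phosphate dehydrogenase Gpd1 among the first 10, genes that are abundant in fat cells.

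In liver, the gene most like Aqp11 among 9001 was Clns1a (rho = 0.607), with 7499 bases between the annotated ends of the 2 genes on chromosome 7 (chr7:104845144-104867389, NCBIM37), and the seventh was Ints4 (0.494), 184981 bases away on the same chromosome. Clns1a had a median of 9.6 TPM in the livers of the 8 strains with the longer deposited Aqp11 transcript and 15.45 TPM in those of the other 39, with overlapping ranges (2.59 to 16.5 and 6.91 to 23.9 TPM). For Ints4 the medians were 13.6 and 15.8 TPM. The CC032 mouse had the highest Aqp11 in liver and the highest Aqp6 in kidney, but ranked 34 of 47 for Aqp11 in kidney and 46 of 47 for Aqp7 in kidney by TPM.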
